A study of Mus musculus with 32 samples.

Results

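The miR-379 to miR-410 cluster is a run of 38 microRNA (miRNA) hairpins on mouse chromosome 12, from miR-379 to miR-3072, that starts before and partly lies inside the noncoding gene Mirg. Members were chosen by name from the deposited miRNA table: every row of a 5p or 3p arm of these hairpins, with the row of the highest mean kept where a name was repeated. The 38 hairpins had 78 rows and 76 arm names, of which 72 were above 0 in some library and 41, from 29 hairpins, averaged 1 RPM or more. Those 41 are described here, out of 543 rows of the whole table that passed the same limit. RPM is the name used here for the authors' normalised read values, whose unit is not stated.

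The libraries came from mesenteric arteries, the small arteries that feed the gut, of male C57BL/6J wild-type mice aged 10 to 12 weeks. Mice received angiotensin II (Ang II), a peptide hormone that constricts arteries and raises blood pressure, at 1000 ng/kg/min under the skin from an osmotic pump for 7 or 14 days, while controls had sham surgery. The labels give 10 mice per group, and 8 libraries each were sequenced for 7-day Ang II, 7-day sham, 14-day Ang II and 14-day sham. Titles carry separate mouse numbers, and each library was made from 1 µg of RNA of dissected artery freed of fat and veins. Whole artery was sequenced, so fewer cells of a type and less RNA per cell cannot be told apart in any value below.

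The cluster belongs to the imprinted Dlk1-Dio3 region, whose noncoding RNAs Meg3, Rian and Mirg are made from the maternal chromosome and carry many miRNAs. Its miRNAs are abundant in the embryo, the placenta and the adult brain, and low in most other adult tissues. A miRNA pairs through its seed, bases 2 to 8, with target mRNAs and lowers their output, and each hairpin can yield a mature miRNA from its 5p arm, its 3p arm or both.

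In the RefSeq annotation of GRCm38.p6, 36 of the 38 hairpins were placed, the exceptions being miR-666 and miR-544. They span chr12:109709060-109747960, 38.9 kb, with 35 on the plus strand and 1, miR-299b, on the minus strand. Mirg (GENCODE M21) covers chr12:109729764-109749460, 19.7 kb. Of the placed hairpins 9 overlap Mirg exons, 4 lie in Mirg introns and 23 lie before the annotated gene. Mature sequences of 38 of the 41 reported rows were matched in RefSeq. The mature miRNAs that were higher after 14 days of Ang II, together with the other most abundant ones, are shown first because the results turn on them. All are written 5′ to 3′ with the seed in capitals.
miR-411-5p: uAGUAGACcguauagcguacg
miR-411-3p: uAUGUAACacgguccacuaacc
miR-329-5p: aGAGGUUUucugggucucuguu
miR-300-3p: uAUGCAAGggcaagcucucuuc
miR-382-5p: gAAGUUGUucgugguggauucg
miR-668-3p: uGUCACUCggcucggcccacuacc
miR-485-3p: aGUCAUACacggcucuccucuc
miR-496a-3p: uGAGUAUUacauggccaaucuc
miR-541-5p: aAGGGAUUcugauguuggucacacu
miR-381-3p: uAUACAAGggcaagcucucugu
miR-409-3p: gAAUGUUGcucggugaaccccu
miR-410-3p: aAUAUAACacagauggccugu

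The 38 sequences carry 36 distinct seeds, so the members together address many sets of target sites. The seed AUGUAAC is shared by miR-379-3p and miR-411-3p, and AUGUGGG by miR-299a-3p and miR-299b-3p. Among the other rows of the table that passed 1 RPM, miR-362-3p carries the seed of miR-329-3p and miR-344d-3p that of miR-410-3p. Near relatives within the cluster differ by few bases, with positions counted from 1 at the 5′ end and the first-named miRNA's base given first. From miR-300-3p to miR-381-3p the changes are G4A, U21G and C22U, the first of them in the seed. From miR-379-3p to miR-411-3p they are U10C and U22C, both outside the seed. From miR-379-5p to miR-411-5p there are 7 changes, of which G2A is in the seed. From miR-376a-3p to miR-376b-3p they are G4A, A13C and G20U.
miR-379-5p: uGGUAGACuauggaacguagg
miR-379-3p: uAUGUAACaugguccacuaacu
miR-376a-3p: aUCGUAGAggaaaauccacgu
miR-376b-3p: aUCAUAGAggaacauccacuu

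The hairpins of miR-299a and miR-299b are shown because their values cannot be told apart. They occupy the same place on opposite strands, chr12:109710638-109710700 on the plus strand for miR-299a and chr12:109710645-109710693 on the minus strand for miR-299b. The mature miR-299b-5p equals 21 bases of miR-299a-5p from base 2, and miR-299b-3p is contained in miR-299a-3p. Capitals mark the mature arms.
miR-299a: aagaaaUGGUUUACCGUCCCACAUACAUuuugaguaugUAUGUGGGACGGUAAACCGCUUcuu
miR-299b: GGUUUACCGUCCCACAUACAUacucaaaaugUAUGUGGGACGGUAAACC
The deposited reads of the 5p pair were equal in 30 of 32 libraries and those of the 3p pair in 24 of 32. Both names of a pair should therefore be read as 1 uncertain measurement. They were not merged, so both names enter every count and median of members below, and both hairpins enter the arm test.

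Depth was 11.4 to 18.8 M recovered reads, and 3 reads, the detection limit used here for counting error only, came to 0.0888 to 0.351 RPM depending on the library. Once group means were removed, the leading principal component (35.6% of the variance) divided the libraries into classes A and B. Class A took in 3 libraries of 7-day Ang II, 5 of 7-day sham, 6 of 14-day Ang II and 5 of 14-day sham, and class B the others. The smooth muscle miRNAs that define this tissue were by far its most abundant marker list, with 196046 to 565295 RPM in 14-day Ang II and 317585 to 739453 RPM in 14-day sham libraries. Replicate 5 of 14-day Ang II and replicate 1 of 7-day sham had the highest neuron list sums, 1917 and 2346 RPM. The other 30 libraries had at most 1147 RPM. The excess came mainly from miR-138-5p. Counts and medians over the members are given below with and without these libraries.

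In these arteries the cluster was present at low to moderate level and was dominated by few arms. The cluster took 0.0893 to 0.437% of the reads of a library. miR-411-5p was highest with a mean of 613 RPM over the 32 libraries and a range of 457 to 1078 RPM. miR-541-5p followed with a mean of 398 RPM and a range of 218 to 635 RPM. The next in order were miR-410-3p at 169 RPM, miR-381-3p at 101 RPM, miR-300-3p at 57.0 RPM and miR-409-3p at 27.6 RPM. miR-411-5p alone made up 40.9% of the summed level of the 41 rows, and these 6 together made up 91.0%. Ranges over the libraries of miR-411-5p and miR-541-5p overlapped, as did those of miR-410-3p and miR-381-3p, but within each of the 32 libraries the first of either pair was the higher.

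The least abundant reported row, miR-543-3p, had 1.03 RPM, which rested on a median of 13.5 reads per library against 9221 for miR-411-5p. Counting error is therefore larger in such rows than in the leading ones. The standard errors of the fold changes did not follow level in the same way, as the added 1 shrinks changes of low rows. At 14 days the standard error was 0.173 for miR-543-3p, 0.106 for miR-411-5p, 0.169 for miR-410-3p and 0.205 for miR-409-3p. In rank among the 543 rows, miR-411-5p stood at 65 and miR-541-5p at 74. No arm of miR-1197, miR-494, miR-1193, miR-539, miR-544, miR-377, miR-412 or miR-3072 reached a mean of 1 RPM, the highest of them being miR-1193 at 0.961 RPM. Both arms of miR-654 were at 0 in every library.

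**Figure D1:**
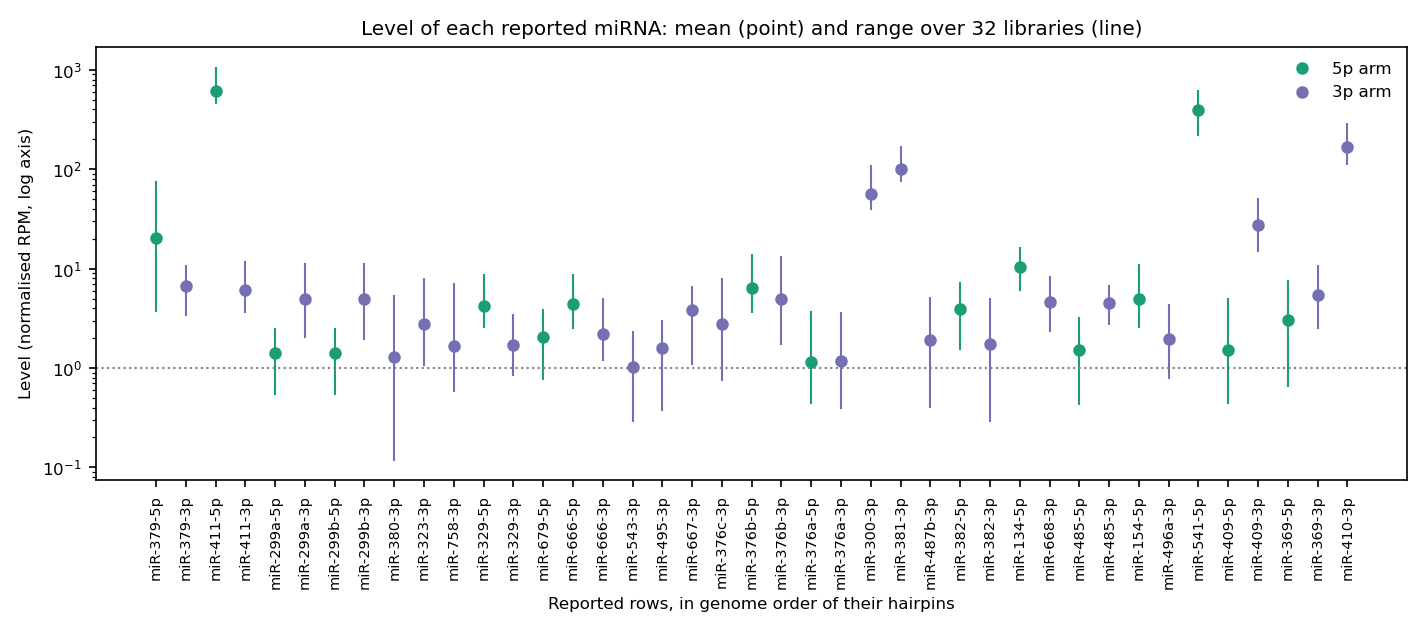
Mean level (point) and range over 32 libraries (line) of the 41 reported rows on a log axis of normalised RPM, in genome order, coloured by arm, with the 1 RPM limit dotted. The 4 rows above 100 RPM are miR-411-5p, miR-541-5p, miR-410-3p and miR-381-3p, and most others lie between 1 and 10 RPM.

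Hairpins differed in which arm was kept. Of 29 hairpins with a reported arm, 11 gave mostly 5p reads and 18 mostly 3p reads, and 19 gave over 90% of their reads from 1 arm. The most 5p-biased were miR-541 with 99.99% 5p reads, miR-411 with 99.0%, miR-679 with 97.5% and miR-154 with 95.02%. The most 3p-biased were miR-758 with 0% 5p reads (0 of 960), miR-410 with 0.0447%, miR-381 with 0.0520% and miR-300 with 0.125%. For miR-758-5p the 0 reads allow a share of up to 0.313%, as a limit of counting error. The related miR-376a and miR-376b were close to even, with 50.5% and 55.2% 5p reads. miR-379, whose 3p arm shares its seed with that of miR-411, gave 71.1% 5p reads, against 99.0% for miR-411.

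The first question was whether Ang II changed these miRNAs after 7 days. No member passed limma at 7 days (0 of 41, with an adjusted p under 0.05), against 0.0% of all 543 rows called higher and 0.184% called lower. With an unadjusted p under 0.05 there were 8, all higher in Ang II, against 4.42% of all rows higher and 6.81% in either direction. Both miR-299a-3p and miR-299b-3p, which cannot be told apart, are counted in the 8. edgeR and DESeq2 called 0 members (1 of 543 rows each) and limma-voom called 1, miR-411-5p (5 of 543 rows). The log2 fold change was above 0 for 32 of 41 members, with a median of 0.13, and above 0 for 46.6% of all rows, with a median of -0.01. Among mice whose numbers begin with 27 the median was 0.26 with 36 of 41 above 0, and among those whose numbers begin with 28 it was 0.03 with 21 of 41 above 0. The members with a log2 fold change below 0 were miR-323-3p, miR-758-3p, miR-376c-3p, miR-376a-5p, miR-487b-3p, miR-382-3p, miR-409-5p, miR-369-5p and miR-369-3p.

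The 5 members with the smallest p had higher medians with Ang II, and their groups overlapped. miR-411-5p, whose precursor is known to be edited in human vascular cells, ran from 568 to 838 RPM (median 638) in 7-day Ang II and from 457 to 610 RPM (median 495) in 7-day sham libraries. All 8 Ang II libraries lay above the sham median and 6 above every sham library. Its log2 fold change was 0.37 ± 0.11 (SE, limma adjusted p = 0.253). miR-134-5p, known in neurons for restraining Limk1 in dendritic spines, ran from 10.3 to 14.8 RPM (median 11.3) with Ang II and from 6.30 to 12.0 RPM (median 9.36) in sham, with all 8 Ang II values over the median of sham. For this arm the log2 fold change was 0.33 ± 0.13 (SE, limma adjusted p = 0.495). For both, most sham libraries lay below the Ang II median.

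The partner arm miR-411-3p ran from 4.90 to 9.25 RPM (median 5.96) with Ang II and from 3.90 to 5.97 RPM (median 5.02) in sham. Its log2 fold change was 0.31 (limma adjusted p = 0.629), and among mice whose numbers begin with 28 it was -0.03. miR-300-3p ran from 47.7 to 79.9 RPM (median 59.2) with Ang II and from 38.9 to 62.7 RPM (median 47.8) in sham. miR-299a-3p ran from 3.83 to 9.57 RPM (median 5.46) with Ang II and from 2.93 to 5.09 RPM (median 4.28) in sham, a value it shares with miR-299b-3p. Their log2 fold changes were 0.32 (limma adjusted p = 0.634) and 0.41 (limma adjusted p = 0.654). In each of these the highest Ang II libraries lay above every sham library while the lower ones lay within the sham range.

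The same question after 14 days gave a broader difference. Of 41 members, 9 rose and 0 fell (22%), against 4.42% of all 543 rows called higher and 2.03% called lower. The 9 were miR-541-5p, miR-382-5p, miR-411-3p, miR-411-5p, miR-485-3p, miR-668-3p, miR-329-5p, miR-496a-3p and miR-300-3p. With the 14-day groups fitted alone, without the spread of the 7-day groups, 0 of 41 passed (3 of 543 rows did), with limma adjusted p values for the 9 of 0.0510 to 0.104, while 20 members had an unadjusted p under 0.05. edgeR's quasi-likelihood test and DESeq2 on the recovered reads called 16 members each, and all 9 were among both sets. These tools also called more of the 543 rows, 55 and 61 against 35 in the main fit. Limma-voom called 15 rows and 5 members, of which 4 were among the 9: miR-541-5p, miR-382-5p, miR-411-3p and miR-411-5p.

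miR-541-5p, the second most abundant member, ran from 333 to 635 RPM (median 475) in 14-day Ang II and from 218 to 391 RPM (median 304) in 14-day sham libraries. It averaged 473 ± 97.0 RPM with Ang II and 313 ± 52.3 RPM in sham (SD, n = 8 each). All 8 Ang II libraries lay above the sham median and 7 of 8 above every sham library. Ang II over sham gave a log2 fold change of 0.59 ± 0.12 (SE, limma adjusted p = 0.00473), a 1.503-fold change of RPM + 1. It was 0.60 in class A alone, 0.59 in class B alone and 0.59 among mice whose numbers begin with 26, which hold 5 of the Ang II and 6 of the sham libraries.

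miR-382-5p, known from a mouse model of kidney fibrosis, had the highest log2 fold change of the 9. It ran from 3.44 to 7.35 RPM (median 6.01) in 14-day Ang II and from 1.52 to 4.1998 RPM (median 2.90) in 14-day sham libraries. All 8 Ang II libraries lay above the sham median, 5 of them above every sham library and 3 within the sham range. Its log2 fold change was 0.75 ± 0.15 (SE, limma adjusted p = 0.00616), a 1.68-fold change of RPM + 1, which understates the change in RPM at this low level. Its partner arm miR-382-3p had a log2 fold change of 0.19 (95% interval -0.19 to 0.57).

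The leading arm miR-411-5p ran from 606 to 1078 RPM (median 673) in 14-day Ang II and from 474 to 637 RPM (median 542) in 14-day sham libraries. Its mean was 739 ± 170 RPM with Ang II and 538 ± 53.3 RPM in sham (SD, n = 8 each), with 5 of 8 Ang II mice higher than every sham mouse. Replicates 1 and 5 were far above the other Ang II libraries. The log2 fold change was 0.43 ± 0.11 (SE, limma adjusted p = 0.0174). Its partner miR-411-3p ran from 5.83 to 11.8 RPM (median 7.21) with Ang II and from 3.59 to 5.90 RPM (median 4.89) in sham, and 7 of 8 Ang II mice lay higher than every sham mouse. On the log2 scale the change was 0.62 ± 0.14 (SE, limma adjusted p = 0.00794), so miR-411 was the hairpin of which both arms rose.

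miR-668-3p ran from 3.22 to 8.47 RPM (median 5.75) with Ang II for 14 days and from 2.33 to 4.10 RPM (median 3.57) in sham. Its log2 fold change was 0.62 (limma adjusted p = 0.0174), with 7 of 8 Ang II mice higher than every sham mouse and 1 below the sham median. Its neighbour miR-485-3p ran from 4.11 to 6.55 RPM (median 5.66) with Ang II and from 2.74 to 4.67 RPM (median 3.48) in sham, with 6 of 8 Ang II mice higher than every sham mouse. The fitted log2 fold change was 0.45 (limma adjusted p = 0.0174). The hairpins of both lie in Mirg exons, as does that of miR-382.

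miR-329-5p ran from 3.40 to 8.91 RPM (median 4.93) with Ang II and from 2.54 to 4.55 RPM (median 2.97) in sham. Its log2 fold change was 0.54 (limma adjusted p = 0.0207), and all 8 Ang II values were over the median of sham. The other arm, miR-329-3p, was the 1 member with a log2 fold change below 0, at -0.01 (95% interval -0.29 to 0.28). Inhibitors of miR-329 are known to raise blood vessel growth in mice after an artery is closed.

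The remaining calls were less firm. miR-496a-3p ran from 1.69 to 4.41 RPM (median 2.50) with Ang II and from 0.807 to 2.27 RPM (median 1.42) in sham, and its log2 fold change was 0.54 (limma adjusted p = 0.0369). miR-300-3p ran from 49.4 to 110 RPM (median 57.7) with Ang II and from 42.9 to 59.0 RPM (median 47.4) in sham, and its log2 fold change was 0.46 (limma adjusted p = 0.0493). For both, all 8 Ang II libraries lay above the sham median, but only 4 and 3 lay above every sham library. With 1 library left out in turn, miR-496a-3p passed in 9 of 16 fits and miR-300-3p in 5 of 16, while the other 7 passed in 16 of 16. Of these 7, miR-668-3p and miR-485-3p also missed the threshold with limma-voom (adjusted p of 0.0888 and 0.0617) and with library totals alone (0.0530 each), and miR-329-5p missed it with limma-voom (0.148).

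**Figure D2:**
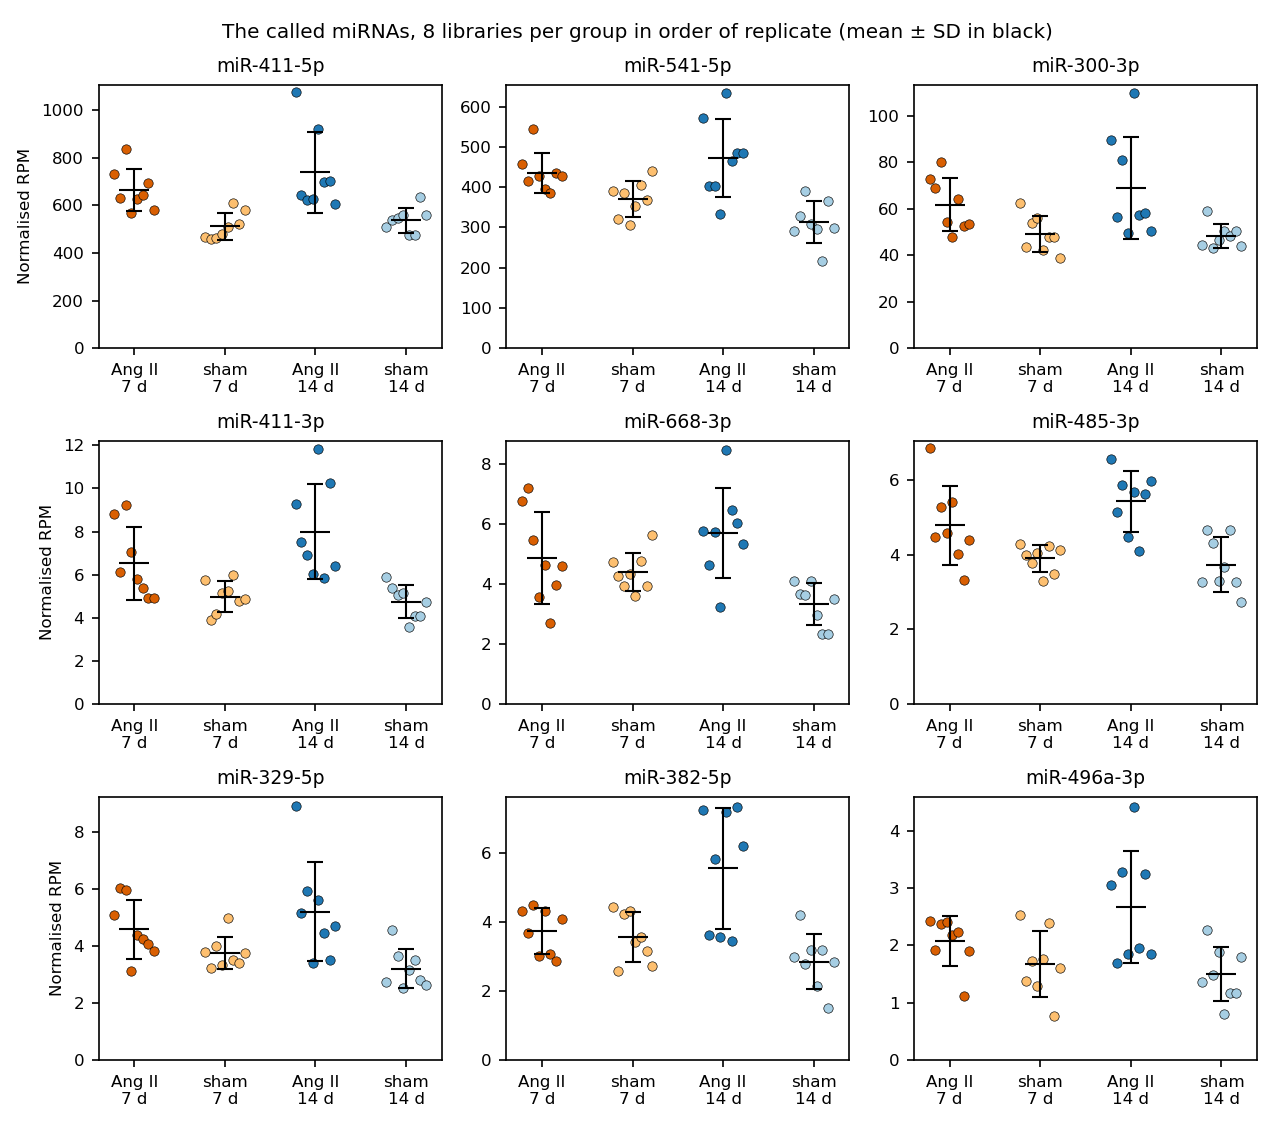
Normalised RPM of the 9 miRNAs that rose at 14 days in all 32 libraries, with Ang II left of sham at each time, points in order of replicate, and mean ± SD in black (n = 8). The axes start at 0. In 14-day Ang II, replicates 1 and 5 are among the highest points of most panels, and miR-541-5p and miR-411-3p show 7 of 8 Ang II points above every 14-day sham point.

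Beyond the calls, the shift at 14 days ran through the cluster. The log2 fold change was above 0 for 40 of 41 members with a median of 0.40, and above 0 for 50.1% of all rows with a median of 0.00. An unadjusted p under 0.05 was found for 23 members, all higher, against 14.5% of all rows higher. All Ang II libraries lay above the sham median for 10 members, against 8.66% of all rows. The members share libraries and precursor transcripts, so their values are not independent of each other. In 14-day Ang II the 41 rows summed to 1368 to 2446 RPM (median 1622), and in 14-day sham to 1141 to 1498 RPM (median 1272).

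The 14 members with an unadjusted p under 0.05 that did not pass included miR-379-3p, which was singled out after its values were seen. It was the 1 member whose 14-day groups did not overlap, with 6.62 to 10.9 RPM (median 7.37) in Ang II and 4.31 to 6.36 RPM (median 5.90) in sham libraries, against 0.368% of all rows. Limma gave a log2 fold change of 0.44 (limma adjusted p = 0.0634). Close to the threshold as well were miR-134-5p (0.40), miR-666-5p (0.63) and miR-485-5p (0.59), each with a limma adjusted p of about 0.058. The others were miR-299a-3p, miR-299b-3p, miR-380-3p, miR-679-5p, miR-543-3p, miR-376c-3p, miR-376a-5p, miR-376a-3p, miR-409-5p and miR-409-3p, with log2 fold changes of 0.36 to 0.71. A p above the threshold does not show that these were equal between the groups.

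Several abundant arms did not pass. miR-410-3p ran from 111 to 293 RPM (median 171) in 14-day Ang II and from 120 to 183 RPM (median 155) in 14-day sham, with a log2 fold change of 0.26 (95% interval -0.08 to 0.60). miR-381-3p ran from 81.1 to 172 RPM (median 104) with Ang II and from 74.4 to 117 RPM (median 89.7) in sham, with 0.21 (-0.07 to 0.49). The groups overlapped widely for both. miR-409-3p ran from 16.8 to 51.5 RPM (median 25.4) with Ang II and from 14.7 to 26.2 RPM (median 20.6) in sham, with 0.53 (0.11 to 0.95). miR-376b-3p, one of a family whose precursors are known to be edited in the brain, ran from 2.35 to 13.5 RPM (median 4.06) with Ang II and from 1.698 to 7.58 RPM (median 4.49) in sham. Here the Ang II median was below that of sham, while the log2 fold change was 0.32 (-0.23 to 0.86). miR-487b-3p, studied before in the aorta of rats given Ang II, had 0.34 (-0.11 to 0.79), and miR-154-5p, known from human lung fibroblasts, 0.36 (-0.02 to 0.74).

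**Figure D3:**
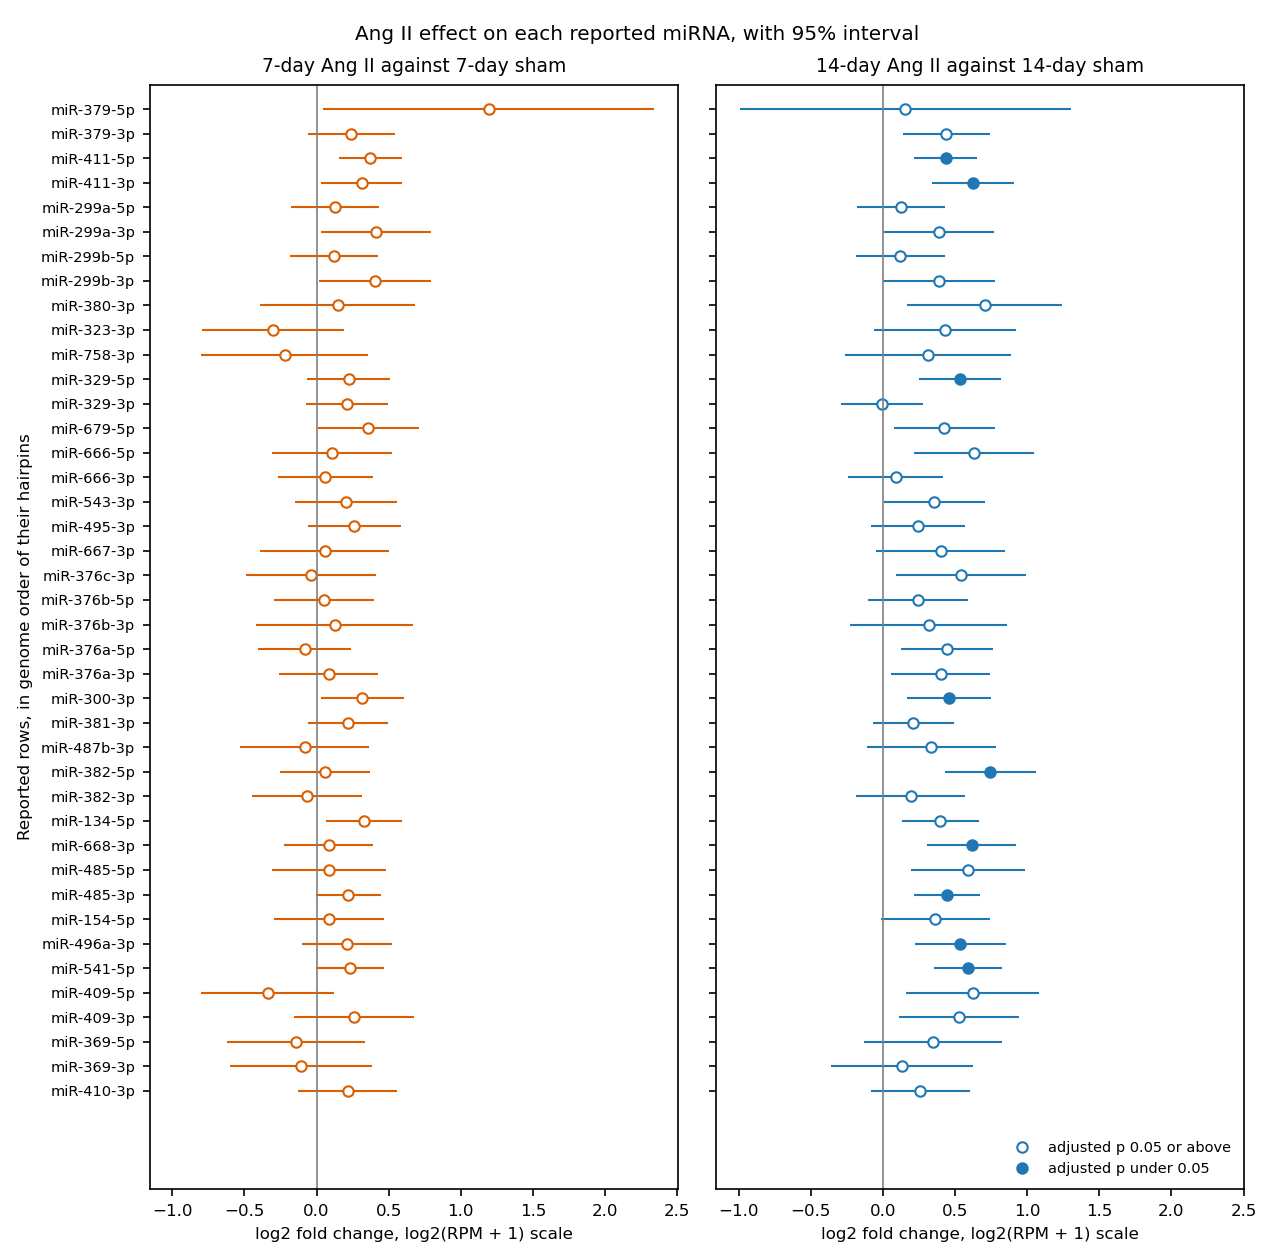
Log2 fold change of Ang II over sham with its 95% interval (limma) for the 41 rows in genome order, at 7 days on the left and at 14 days on the right, on one scale. Filled points passed an adjusted p of 0.05: 9 at 14 days and 0 at 7 days. At 14 days all points but miR-329-3p lie above 0.

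Members rose in every subset of position, arm and abundance. Among hairpins within annotated Mirg 5 of 14 rows rose, with a median log2 fold change of 0.49, and among those before it 4 of 27, with 0.39. For 5p rows the count was 4 of 16 with a median of 0.43, and for 3p rows 5 of 25 with 0.39. Of the 8 rows that averaged 10 RPM or more, 3 rose (median 0.42), and of the 33 below it 6 rose (median 0.40). Over all 543 rows 4.42% were called higher, and when rows averaging at least 10 RPM were fitted alone, 27 of 280 were called in either direction. The differences between subsets were not tested.

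The 14-day difference was uneven over mice. Replicates 5, 1 and 3 of 14-day Ang II were the highest of their group for 22, 12 and 5 members, and replicate 5 was among the 3 highest for 37 of 41. The mean log2 value of the members was 3.48, 3.30 and 3.10 in these libraries and 2.62 to 2.88 in the other 5 Ang II libraries, against 2.45 to 2.76 in 14-day sham. In share of all reads, replicate 5 held 0.437%, against a group median of 0.193%, and 14-day sham libraries held 0.0950 to 0.161%. A share also depends on all other reads of a library. In summed level replicate 5 had 2405 RPM, below replicate 1 of its group at 2446 RPM, whose share was 0.233%. Without replicate 5, 7 members were called (23 of all 543 rows) and the median log2 fold change was 0.34. In class A alone the median was 0.35 with 37 of 41 above 0, within class B 0.56 with 40 of 41, and among mice whose numbers begin with 26 it was 0.51 with 41 of 41.

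Markers of other cells were set beside this. Replicate 5 of 14-day Ang II and replicate 1 of 7-day sham were the highest libraries of the neuron list, mainly through miR-138-5p at 1256 and 1496 RPM, against at most 486 RPM elsewhere. The neuronal miR-124-3p had 16.99 and 19.02 RPM there and at most 15.2 RPM elsewhere. Other neuron rows did not stand out in replicate 5 of 14-day Ang II. There miR-128-3p had 39.7 RPM, equal to its median over the 32 libraries. miR-9-5p had 317 RPM there, against 357 RPM in replicate 3 of that group. In replicate 1 of 7-day sham miR-9-5p was the highest of all libraries, at 423 RPM. Replicate 5 of 14-day Ang II and replicate 1 of 7-day sham were each the highest of their group for 22 members. With both left out, a setting chosen after the data were seen, 7 members were called at 14 days (all but miR-496a-3p and miR-300-3p of the 9). Of all 543 rows 20 were called, the members' median was 0.34 and 39 of 41 were above 0. At 7 days the median was then 0.23 and 35 of 41 were above 0. With the neuron list's level as a term, also chosen after the data were seen, 18 members were called at 14 days. Calls over all 543 rows rose as well, to 69 from 35 in the main fit. Of the 10 neuron rows tested, 0 passed at 14 days in limma (0 at an unadjusted p under 0.05), with a median of -0.07 and summed levels of 482 to 1917 RPM in Ang II and 460 to 1147 RPM in sham.

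Other lists also moved at 14 days. Red blood cell miRNAs rose in 2 of 5 rows (median 0.99), with 14978 to 53139 RPM summed in Ang II and 5951 to 50268 RPM in sham. Epithelial miRNAs fell in 1 of 10 rows (median -0.65), with 1131 to 1766 RPM in Ang II and 1352 to 5069 RPM in sham. The fibroblast and mesenchyme list rose in 1 of 5 rows (median 0.40), with 5686 to 7750 RPM in Ang II and 4610 to 6456 RPM in sham. In the red blood cell, epithelial and fibroblast lists 5, 7 and 2 rows had an unadjusted p under 0.05 in limma. All of them went in the direction of the calls, and 0 of 10 epithelial rows were above 0. Of all 543 rows, 4.42% were called higher, 2.03% were called lower and 25.8% had an unadjusted p under 0.05 in limma. Smooth muscle (median -0.12), striated muscle (-0.21), endothelium (-0.33), leukocyte (0.33) and pancreatic acinar (-0.39) lists had 0 rows called in limma, with 0, 0, 1, 4 and 0 rows at an unadjusted p under 0.05. Their part in the result was not tested.

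**Figure D4:**
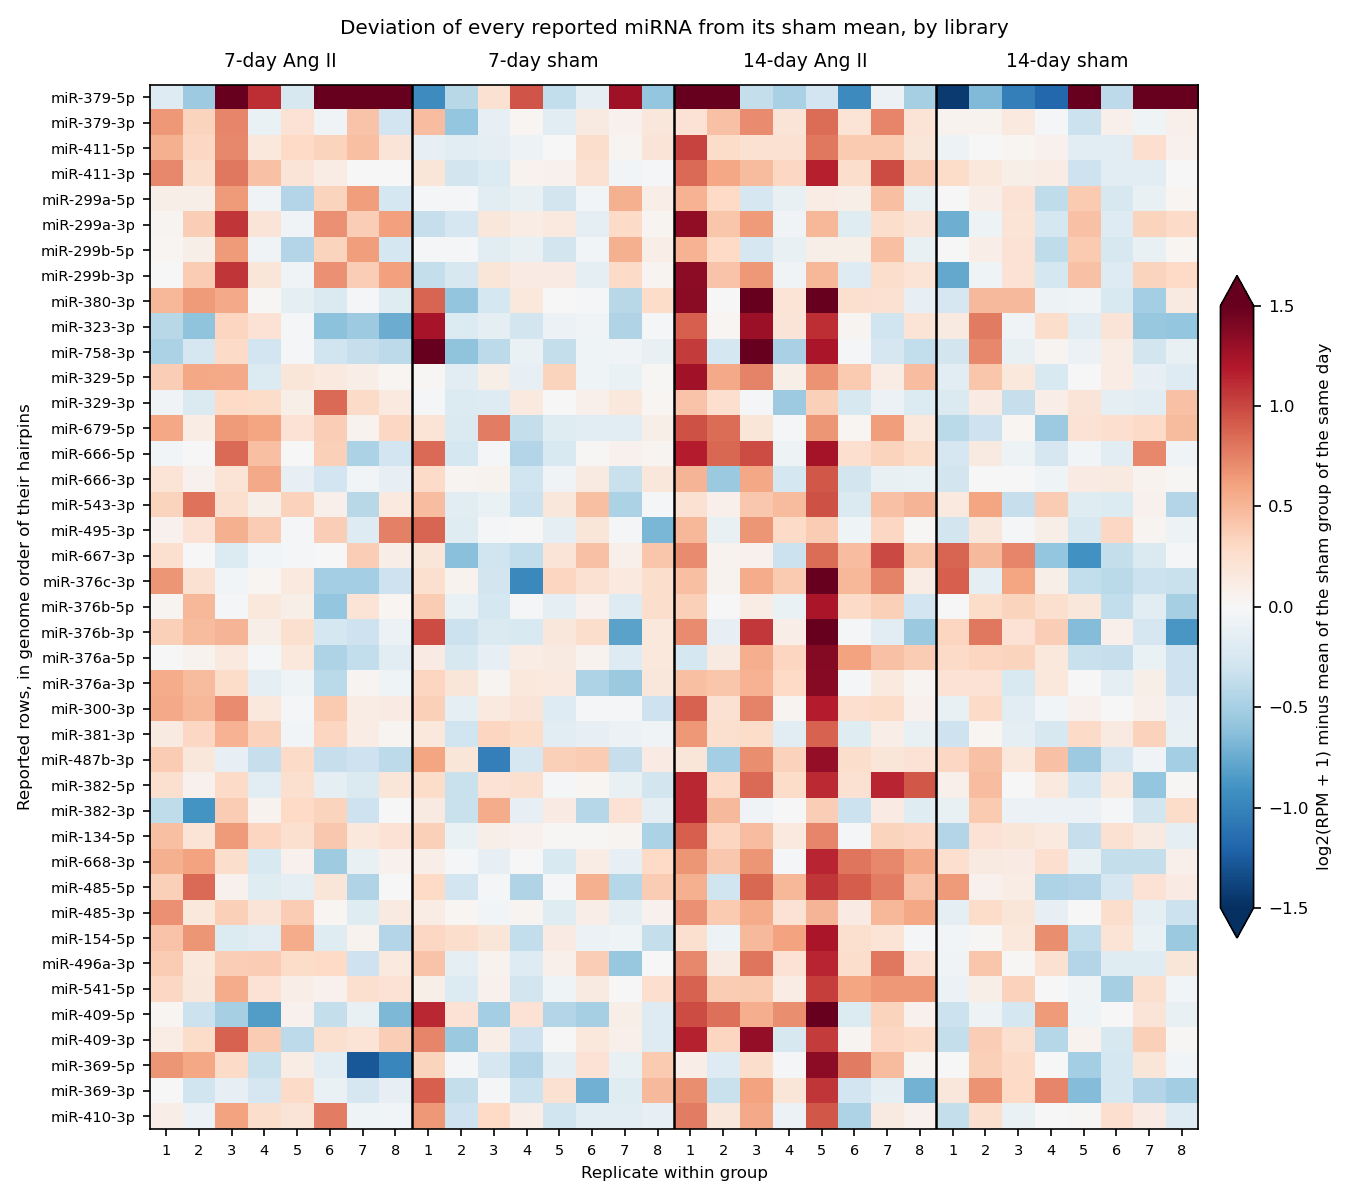
Deviation of each of the 41 rows in each library from the mean of the sham group of the same day, on the log2(RPM + 1) scale (red higher, blue lower, colours ending at 1.5), with Ang II left of sham for each day. Columns 5, 1 and 3 of 14-day Ang II are red over most rows, and column 1 of 7-day sham is red for many rows as well. The top row, miR-379-5p, follows another pattern of libraries.

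The rest of the Dlk1-Dio3 region gave a comparison from lists of named hairpins. Of the miRNAs of the Rtl1-antisense transcript, which lies before the cluster, 9 rows were tested and 4 rose at 14 days, with 9 of 9 above 0 and a median log2 fold change of 0.47. Of the remaining miRNAs of the region, 8 rows were tested and 1 rose, with 8 of 8 above 0 and a median of 0.36. At 7 days 0 of 9 and 0 of 8 passed in limma (1 and 3 at an unadjusted p under 0.05), with medians of 0.16 and 0.26. The cluster's own medians, 0.13 and 0.40, lay near these, and the difference between the lists was not tested.

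The 14-day and 7-day effects were compared by their interaction. No member passed in limma (0 of 41, against 0.0% of all rows), nor in edgeR, DESeq2 or limma-voom, and 6 members had an unadjusted p under 0.05, against 4.6% of all rows. The log2 fold change at 14 days exceeded that at 7 days for 34 of 41 members (52.5% of all rows), by a median of 0.26, with each effect set against its own sham group. That median was 0.11 (30 of 41) without both libraries highest in the neuron list, 0.18 (32 of 41) without replicate 5 of 14-day Ang II and 0.14 (26 of 41) with limma-voom. The 3 with the smallest p were miR-382-5p, miR-409-5p and miR-668-3p. miR-382-5p averaged 3.74 ± 0.666 RPM in 7-day Ang II and 3.56 ± 0.725 RPM in 7-day sham, and 5.56 ± 1.75 RPM in 14-day Ang II and 2.86 ± 0.787 RPM in 14-day sham (SD, n = 8 each). The difference of its effects was 0.69 (95% interval 0.24 to 1.13, limma adjusted p = 0.804). That of miR-409-5p was 0.96 (0.31 to 1.61) and that of miR-668-3p 0.53 (0.10 to 0.97), with the same adjusted p. Calls were made at 14 days and none at 7 days in limma, but the effects were not shown to differ between the times. Mouse numbers beginning with 26 occur in 5 Ang II and 6 sham libraries at 14 days and in none at 7 days, so time is also largely confounded with mouse-number series.

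Sham levels were compared between the times because each effect is set against its own sham group. The 7-day sham mice have numbers beginning with 27 or 28 (4 each), while 6 of the 14-day sham mice have numbers beginning with 26, as no 7-day mouse does. Time and mouse-number series are therefore largely confounded here. In 14-day against 7-day sham, 0 of 41 members passed in limma (against 0.0% of all rows), nor in edgeR, DESeq2 or limma-voom. With an unadjusted p under 0.05 there were 3, all lower in 14-day sham. With that p, 3.31% of all rows differed in either direction, of which the higher ones made up 1.84% of all rows and the lower ones the rest. The log2 fold change was above 0 for 11 of 41 members, with a median of -0.10, and for 50.6% of all rows. Without replicate 1 of 7-day sham, 17 of 41 were above 0 with a median of -0.05, and 1 had an unadjusted p under 0.05. The median was -0.05 without replicate 6 of 7-day sham, -0.06 without replicate 5 of 14-day sham and -0.15 without replicate 2 of 14-day sham. miR-409-5p ran from 0.439 to 1.79 RPM (median 0.709) in 14-day sham and from 0.942 to 5.04 RPM (median 1.67) in 7-day sham, with a log2 fold change of -0.63 (limma adjusted p = 0.996). miR-541-5p averaged 313 ± 52.3 RPM in 14-day sham and 372 ± 44.6 RPM in 7-day sham (SD, n = 8 each), with -0.26, and miR-668-3p had -0.33. The same 3 members enter the interaction or the 14-day calls, and those comparisons use these sham libraries too.

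Arm use was tested in the 12 member hairpins with both arms reported, among 114 such hairpins of the table. The 5p over 3p ratio passed limma in 0 of 12 at 7 days and 0 of 12 at 14 days, against 0.0% of the 114 hairpins at either time, and 1 and 3 members had an unadjusted p under 0.05 (2.63% and 10.5% of the 114). The 3 at 14 days were singled out after their values were seen. miR-329 gave 75.1% ± 4.43 5p reads in 14-day Ang II arteries and 64.9% ± 8.51 in 14-day sham. miR-666 gave 69.1% ± 6.86 with Ang II and 58.5% ± 6.11 in sham, and miR-382 70.8% ± 9.36 and 60.97% ± 5.02 (SD, n = 8 each). Their adjusted p values in limma were 0.159, 0.159 and 0.178. In all 3 the 5p share was higher on average with Ang II, within a spread over libraries that overlapped.

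miR-379-5p, singled out after its values were seen, had the widest difference between the library classes. It ran from 5.19 to 63.7 RPM (median 27.7) in 7-day Ang II, from 3.68 to 20.8 RPM (median 6.56) in 7-day sham, from 7.11 to 75.8 RPM (median 11.7) in 14-day Ang II and from 4.83 to 46.5 RPM (median 9.98) in 14-day sham. In class B libraries it ran from 9.58 to 75.8 RPM (median 43.8) and in class A from 3.68 to 13.9 RPM (median 6.85). Within every group its class B libraries averaged above its class A libraries, by 1.31 to 2.51 on the log2 scale. The mean difference of 2.16 was followed in size, among the members, by -0.68 for miR-487b-3p and -0.53 for miR-376c-3p, and the median member had -0.09. Over all 543 rows the differences ran from -2.76 to 3.93, and miR-379-5p ranked 5 from the highest. The classes were drawn from all rows of these libraries, so this is a description with no test.

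The partner arm, miR-379-3p, ran from 4.31 to 9.89 RPM (median 5.71) in class B and from 3.37 to 10.9 RPM (median 6.62) in class A, a mean difference of -0.15. The 5p share of miR-379 reads therefore lay between 65.6 and 91.9% (median 88.5%) in class B and between 31.3 and 64.5% (median 52.3%) in class A, without overlap. How many other hairpins of the table are split by class in this way was not counted. Its hairpin is shown with both mature arms in capitals because the values of its arms are set side by side here.
miR-379: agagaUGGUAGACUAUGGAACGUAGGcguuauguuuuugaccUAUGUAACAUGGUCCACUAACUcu
The 7-day Ang II group holds 5 class B libraries and the 7-day sham group 3. The log2 fold change of miR-379-5p at 7 days, 1.19 (95% interval 0.05 to 2.34, limma adjusted p = 0.668), was 0.16 in class A alone and 1.29 in class B alone. At 14 days it was 0.16 over all libraries, 0.50 within class A and 0.39 within class B. The related miR-411-5p had a mean class difference of 0.06.

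**Figure D5:**
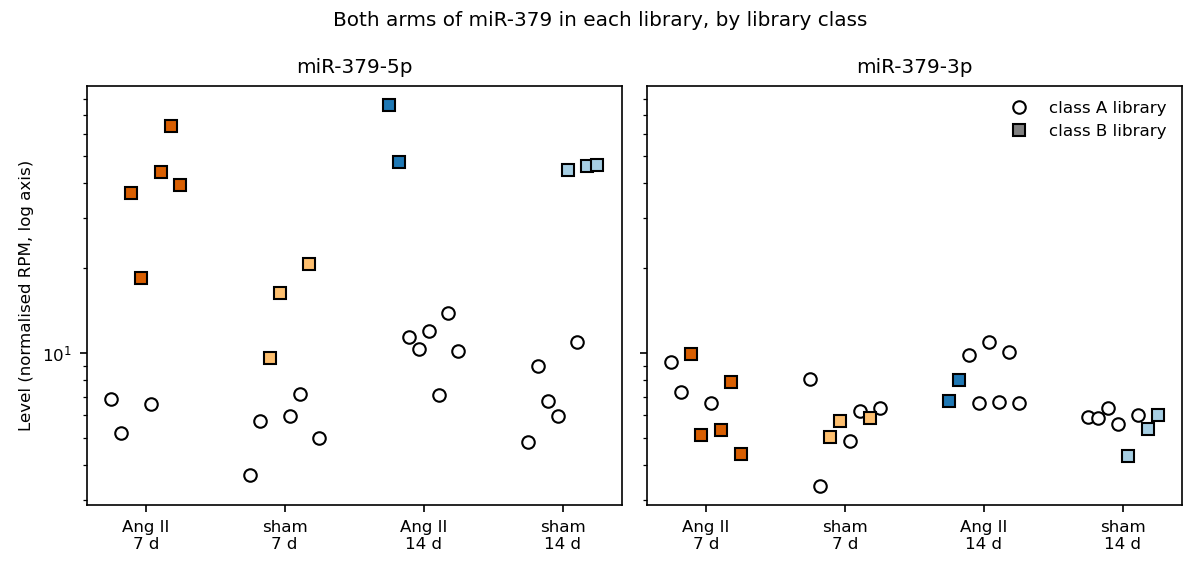
Normalised RPM (log axis) of miR-379-5p on the left and miR-379-3p on the right in each library, with Ang II left of sham at each time, class A libraries as open circles and class B libraries as filled squares. The 5p arm is higher in the class B libraries of each group, while the 3p arm stays between 3.37 and 10.9 RPM in both classes.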

How the data were processed

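Small RNA was sequenced from 32 libraries of mesenteric artery, 8 in each of 4 groups, and each of the 32 columns was assigned through its group heading and the number of its mouse. The authors deposited a normalised signal for each miRNA in each library and name no unit for it. The submitters' processing notes list STAR 2.3.1, the build mm10, edgeR 3.6.8, R 3.2.3, bcl2fastq 1.8.4 and FastQC, with no roles, and which annotation was used and how multi-mapping reads were handled are not given in the sources used here. All values (100%) were whole multiples of their library's smallest step within 0.001 read, so whole reads were recovered, and the values are called RPM. The columns summed to 0.727 to 1.67 M, so the scaling is not plain division by the column total.

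Of 1722 rows, 364 were 0 throughout. For each of the 114 repeated names the row of highest mean was kept and equal rows were merged, leaving 1030, of which 543 had a mean of at least 1 RPM. Since the values were normalised, the main test was limma 3.58.1 with a trend, run in R 4.3.3 on log2(value + 1) in 1 model of the 4 groups, with Benjamini-Hochberg adjustment over all 543 rows, two-sided, called under 0.05. Fold changes are on that scale and understate changes of low rows. Arm ratios were tested with limma without a trend on log2((5p + 1)/(3p + 1)) over 114 hairpins. Count tests on the recovered reads used edgeR 4.0.16, which called 55 rows at 14 days and 1 at 7 days, and DESeq2 1.42.0. Scripts were tested on simulated data.

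Named members are all called ones, or with fewer than 5 called the 5 of smallest p in each Ang II comparison, and with fewer than 3 called the 3 of smallest p in the interaction and between sham groups. The 6 most abundant and the least abundant rows, and the 4 most unequal hairpins each way, are named too. The members and lists were chosen with earlier results of these data known. Alternatives were other pseudocounts, filters, scalings, tools and terms, and each library left out. The p-values measure the spread between separately numbered mice. Sequences and positions came from RefSeq for GRCm38.p6, the build named mm10. The table does not give what was counted where near-identical miRNAs share reads, and such pairs are named as uncertain.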

Additional observations from a re-analysis of the deposited data

Results flagged for a closer look

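For the 20 quantities examined (18 named members and 2 cluster-wide values), the highest or lowest library of each group was set against its neighbours. In 11 of 80 groups its distance to the nearest other library took up an unusually large part of the group's range. Chance gives about 1 in 20 for independent, normally distributed values. The quantities share libraries and are not independent, so the count cannot be set directly against that share. Replicate 5 of 14-day Ang II held 0.437% of its reads in the cluster, against a group median of 0.193%. Its summed level, 2405 RPM, was below the 2446 RPM of replicate 1. Replicate 5 also had 4.97 RPM of miR-409-5p against a median of 1.76 RPM. Replicate 1 of that group had 8.91 RPM of miR-329-5p (median 4.93 RPM) and 11.5 RPM of miR-299a-3p (median 5.31 RPM). Replicate 1 of 7-day sham had a mean log2 value of the members of 2.98 (median 2.59), with 5.04 RPM of miR-409-5p (median 1.67 RPM) and 43.1 RPM of miR-409-3p (median 26.2 RPM). In 7-day Ang II, replicate 3 had 546 RPM of miR-541-5p (median 428 RPM) and replicate 7 had 1.11 RPM of miR-496a-3p (median 2.21 RPM). In 7-day sham, replicate 5 had 4.96 RPM of miR-329-5p (median 3.64 RPM), and in 14-day sham, replicate 4 had 1.79 RPM of miR-409-5p (median 0.709 RPM).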

How the results depend on the processing

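At 14 days 9 members were called. Calls over all rows are given in brackets, with 35 of 543 in the main fit. The count was 16 with edgeR (55), 16 with DESeq2 (61) and 5 with limma-voom with quality weights (15). It was 17 with the library class as a term (80) and 18 with the neuron list's level as a term (69). It was 3 with a mean of at least 10 RPM, where 8 members were fitted (27 of 280 rows), and 0 when the compared groups were fitted alone (3). It was 9 and 8 with pseudocounts of 0.5 and 10 (36 and 26), and 7 without a filter (17 of 1030 rows). With the mouse-number series as a term it was 12 (37), and without both libraries highest in the neuron list 7 (20). With RLE or TMM factors it was 8 (33 and 29) and with library totals alone 9 (23), of which 5 were shared with the 9. Leaving out 1 library at a time it ran from 7 to 12 (21 to 42). At 7 days it was 0, and 1 with limma-voom. The arm ratio called 0 member hairpins at 14 days and 1, miR-382, with a pseudocount of 10. The median log2 fold change at 14 days was 0.40, 0.14 with a pseudocount of 10 and 0.34 to 0.46 without 1 library. With library totals alone it was 0.61, where the median of all rows was 0.23. At 7 days it was 0.13, and 0.09 to 0.23 without 1 library, and leaving out replicate 1 of the 7-day sham mice gave the highest value. The 7-day median was 0.23 with edgeR, 0.20 with DESeq2, 0.24 with limma-voom, 0.26 with the neuron list's level as a term and 0.04 with a pseudocount of 10. The median difference of the effects, 0.26, was 0.41 with library totals alone, 0.17 with the neuron term and 0.10 with a pseudocount of 10. That between the sham groups, -0.10, was -0.20 with the mouse-number series as a term, -0.04 with limma-voom, -0.02 with the neuron term and -0.025 with a pseudocount of 10. The value of miR-411-3p at 7 days was -0.0322 among mice whose numbers begin with 28. The cause of these changes was not tested. The interaction and the sham comparison called 0 members under every setting run. Both settings with the neuron list were chosen after the data were seen.

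No paired analysis was possible because the replicate numbers are in accession order and the labels give each mouse its own number, so no number is shared between groups. Depth limits the rows near 1 RPM, such as miR-543-3p with a median of 13.5 reads per library. The mouse-number series and the groups are partly confounded, and no 7-day library was of series 26. At 14 days series 26 alone held enough libraries of both arms, and within it none of the 9 passed (limma adjusted p of 0.205 to 0.239).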

Other observations

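Of the 9 hairpins with no arm at 1 RPM, the more abundant arm of miR-1193 had a mean of 0.961 RPM, miR-494 0.818 RPM and miR-377 0.686 RPM. For the others, the mean of the more abundant arm was 0.356 RPM for miR-3072, 0.285 RPM for miR-539, 0.173 RPM for miR-412, 0.0439 RPM for miR-1197 and 0.0243 RPM for miR-544. miR-494, whose inhibition is known to raise blood vessel growth in mice after an artery is closed, gave 1.26% 5p reads over 32 libraries, and miR-377 gave 38.0%. Both arms of miR-654 were at 0. These low rows were not named in any comparison.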
